A study of Trichoderma atroviride with 42 samples.

Results

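Tatro_007246 (transcript Tatro_007246-T1) is a Trichoderma atroviride gene whose product text in the deposited annotation names the cerato-ulmin family of hydrophobins. It is 1 of 11786 genes with counts, and it was followed here through all 14 groups. It was chosen by its counts, which 4 and 8 h after scalpel injury stood above those of the late control. Its product text is known because the authors listed it among the genes that differed 30 min after injury. Values of these injured groups and of both controls are therefore given as a description, with no test. The tests cover the larval and collembola groups and injury at 90 min.

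Wild-type mycelium, grown in darkness at 27 °C on cellophane-covered potato dextrose agar, was 36 h old. It was grazed during 10 min by Drosophila melanogaster larvae (Dm), cut with a scalpel (MI), or grazed as long by a collembola, Orthonychiurus folsomi (Of), and harvested after 30 min, 90 min, 4 h or 8 h. Untreated plates opened for 2 min in the dark gave an early control (CT0) and a late control at 8 h (CT8). The early control is labelled as time 0, while the design text places it at 30 min, and 90 min and 4 h have no control of their own. Each group had 3 biological replicates, each pooled from 3 technical ones, and RNA was total RNA of whole mycelium.

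Hydrophobins are small, secreted, cysteine-rich proteins of filamentous fungi that assemble into films at the boundary between water and air. They make hyphae that leave the substrate, and the conidia (asexual spores) formed on them, repel water. Cerato-ulmin is the class II hydrophobin of the Dutch elm disease fungi, in which it was described as a toxin. Injured T. atroviride colonies are known to form conidia along the wound. Aerial hyphae and conidia were not scored in these data, so the transcript was measured but its place in the colony was not.

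Library totals ran between 1152096 and 5398093 counts. The 4 shallowest libraries, 1 each of Dm_90min, Dm_8h, Of_30min and CT0, held at most 1607248 counts, and the other libraries at least 2260001. A single other transcript, Tatro_002410, singled out after its values were seen, took 12.5% to 16.9% of the counts in 3 of these 4 libraries. The hydrophobin had 0 to 3 counts in 4 libraries, of MI_30min, MI_90min, Dm_30min and Of_30min. A floor of 3 counts corresponds to 0.556 to 2.6 CPM, depending on the library, and covers counting error only. Means of about 1 to 3 CPM therefore lie near the floor, and the gene passed the low-count filter through its high groups.

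In mycelium grazed by larvae the hydrophobin transcript climbed at every harvest. The level is given as CPM, the count set against its library total after TMM scaling. The 3 Dm_30min libraries held 1.61, 0.72 and 1.58 CPM, from 8, 3 and 6 counts. The Dm_90min libraries held 9.99, 7.68 and 10.2 CPM. No library of one time overlapped those of the other. The Dm_4h libraries held 75.5, 58.4 and 73.7 CPM. The Dm_8h libraries held 222, 268 and 205 CPM, from 583, 400 and 985 counts. All 4 larval groups stood apart in time order, and the shallowest 8 h library was the highest of its group. In bulk mycelium, fewer cells of a type and less RNA per cell cannot be told apart, so a level is an average over the whole colony.

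Injured mycelium had the same low start, with a later departure. The MI_30min libraries held 0, 1.89 and 1.55 CPM. The MI_90min libraries held 1.17, 0.719 and 2.44 CPM, from 6, 2 and 10 counts. These groups overlapped at the floor. The MI_4h libraries held 69.4, 52.9 and 96 CPM, and the MI_8h libraries 161, 141 and 106 CPM. Both later groups lay above every library of the earlier ones and did not overlap with each other.

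Mycelium grazed by the collembola stayed low for longest. The Of_30min libraries held 0.789, 1.85 and 3.03 CPM. The Of_90min libraries held 2.77, 1.9 and 1.67 CPM, and the Of_4h libraries 2.97, 1.05 and 2.45 CPM. The 3 groups overlapped throughout, with 1 to 11 counts a library. The Of_8h libraries held 15.2, 10.4 and 25.4 CPM, from 64, 36 and 70 counts. All 3 stood above every earlier collembola library. Untreated mycelium held 10.6, 5.13 and 6.09 CPM in the late control and 2.49, 3.84 and 1.72 CPM in the early control.

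**Figure D1:**
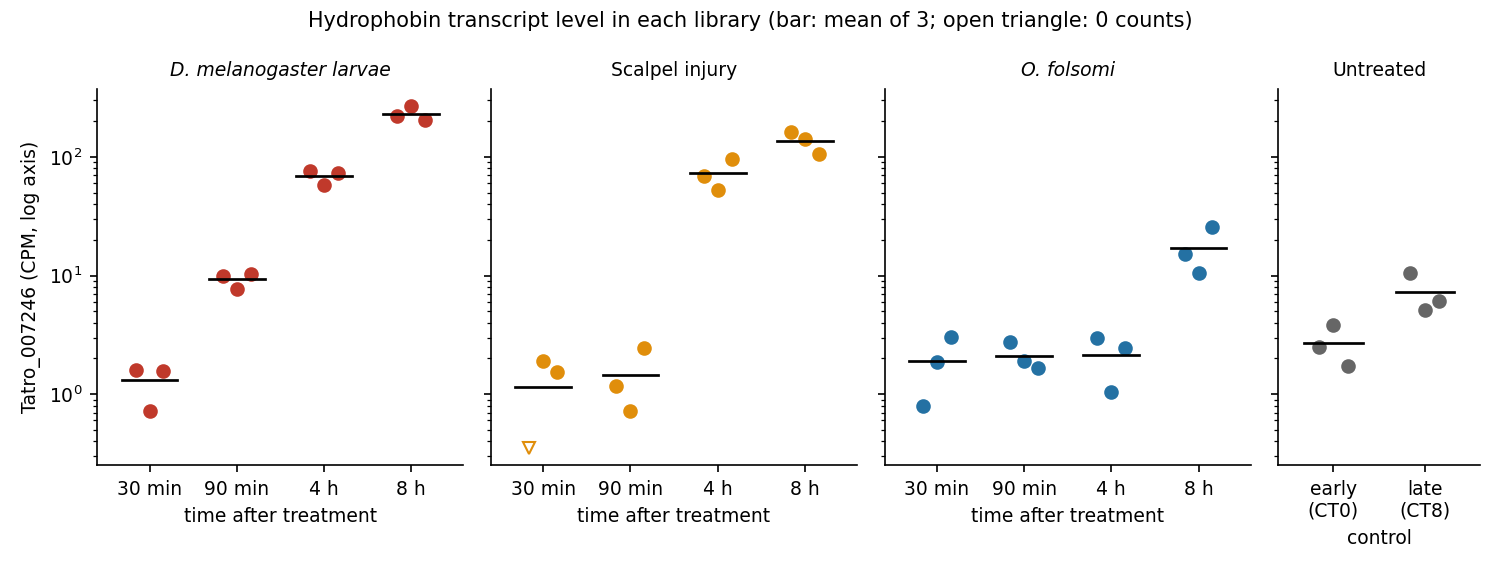
Level of the hydrophobin transcript (CPM, log axis) in each of the 42 libraries by treatment and time, with a bar at the mean of 3 libraries and an open triangle for the library with 0 counts. Larval groups separate at every time and reach 205 to 268 CPM at 8 h, while collembola libraries stay at or under 3.03 CPM to 4 h and reach 10.4 to 25.4 CPM at 8 h.

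Ordered by mean level, 7 groups formed a block whose neighbours overlapped and differed by less than the larger SD of the pair. In this block MI_30min averaged 1.15 ± 1.01 CPM (SD, n = 3 here and below), Dm_30min 1.3 ± 0.504, MI_90min 1.44 ± 0.892, Of_30min 1.89 ± 1.12, Of_90min 2.11 ± 0.575, Of_4h 2.16 ± 0.991 and CT0 2.68 ± 1.07 CPM. CT8 at 7.28 ± 2.93 CPM and Dm_90min at 9.29 ± 1.4 CPM came next and overlapped each other. Of_8h followed at 17 ± 7.68 CPM. Its step above Dm_90min, 7.71 CPM, barely exceeded the SD of Of_8h, 7.68 CPM, although their libraries did not overlap. Dm_4h at 69.2 ± 9.38 CPM and MI_4h at 72.8 ± 21.8 CPM overlapped. MI_8h at 136 ± 27.9 CPM and Dm_8h at 232 ± 32.6 CPM stood alone at the top, each free of overlap with its neighbours. Summed over 3 libraries, the groups of the low block held 15 to 25 counts, Dm_90min 88, CT8 91, Of_8h 170, Dm_4h 667, MI_4h 1157, MI_8h 1837 and Dm_8h 1968. More counts lower the counting error. The CV over the 3 libraries ran from 27.2% (Of_90min) to 87.9% (MI_30min) in the low block. In Dm_4h, MI_4h, MI_8h and Dm_8h it ran from 13.6% (Dm_4h) to 30% (MI_4h). Between these in counts, it was 15.1% in Dm_90min, 40.3% in CT8 and 45.1% in Of_8h. The CV thus tended to be lower at high counts, though not in strict order.

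Over the larval course the hydrophobin rose at each later harvest relative to 30 min. Tests were edgeR quasi-likelihood F tests fitted to all 42 libraries, with p adjusted over the 9193 genes tested by the Benjamini-Hochberg method, and a gene counted as changed at an adjusted p under 0.05. At 90 min it was 6.79-fold higher than at 30 min (log2 2.76 ± 0.49 SE, edgeR adjusted p = 9.2e-05). Of all genes tested, 10.6% rose in that comparison, which called 1743 genes in all and 1053 without Dm_30min replicate 3. At 4 h it was 51.7-fold higher than at 30 min (log2 5.69 ± 0.36, edgeR adjusted p = 1.4e-14), where 19.9% of genes rose. At 8 h it was 171-fold higher than at 30 min (log2 7.42 ± 0.34, edgeR adjusted p = 3.8e-19), where 21.5% of genes rose. A call is thus common in this course. Among all tested genes its log2 change ranked 17 at 90 min, 7 at 4 h and 10 at 8 h from the top. The divisor of each fold is the 30 min group, with 17 counts over its 3 libraries, so the folds carry the error of that low level and the 95% interval at 8 h ran from 6.73 to 8.1 on the log2 scale.

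Over the collembola course it rose only in the 8 h comparison. At 90 min the log2 change from 30 min was -0.07 (95% interval -1.52 to 1.39, edgeR adjusted p = 0.99), where 0.392% of genes were called. At 4 h it was 0 (95% interval -1.31 to 1.3, edgeR adjusted p = 1), where 0.37% of genes were called. These shares stand for 36 and 34 genes with all libraries, and for 5 to 29 and 8 to 23 when 1 library was left out, with the fewest without Of_30min replicate 2. At 1 to 11 counts a library these intervals are wide, and a change of a size within them was not excluded. At 8 h the transcript was 7.61-fold higher than at 30 min (log2 2.93 ± 0.46, edgeR adjusted p = 8.3e-05). That comparison called 486 genes, and between 219 and 417 when 1 library was left out, with the fewest without Of_30min replicate 2. Of all genes 3.44% rose there, and the log2 change of the hydrophobin ranked 25 from the top.

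The rise over the larval course was larger than that over the collembola course. The log2 change between 30 min and 8 h was greater by 4.49 ± 0.87 after larvae than after the collembola, a 22.5-fold difference of the folds (95% interval 2.73 to 6.25 on the log2 scale, edgeR adjusted p = 0.00026). In that test of the difference, 11.5% of genes changed more positively after larvae.

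Set side by side at each time, the grazers parted at 90 min. At 30 min the log2 difference of larvae over collembola was -0.7 ± 0.72 (95% interval -2.16 to 0.77, edgeR adjusted p = 0.46), and the libraries overlapped. That comparison called 41.4% of all genes. At 90 min the transcript was 4.38-fold higher after larvae than after the collembola (log2 2.13 ± 0.5, edgeR adjusted p = 0.00098), with 17.3% of genes higher. At 4 h it was 32-fold higher after larvae (log2 5 ± 0.34, edgeR adjusted p = 2.7e-13), with 13.4% of genes higher. It had the lowest p of all genes at 4 h, and its log2 difference ranked 7 from the top. At 8 h it was 13.9-fold higher after larvae (log2 3.79 ± 0.24, edgeR adjusted p = 1.7e-14), with 10.7% of genes higher. The 95% interval of the log2 difference ran from 4.31 to 5.69 at 4 h and from 3.3 to 4.29 at 8 h, and the change of this gap with time was not tested. No library overlapped between the grazers at 90 min, 4 h or 8 h.

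At 90 min injury had left the transcript lower than larval grazing. The level averaged 1.44 ± 0.892 CPM after injury and 9.29 ± 1.4 CPM after larvae (SD, n = 3 each), 5.96-fold lower after injury (log2 -2.58 ± 0.48, edgeR adjusted p = 0.00057). Of all genes 6.73% were lower after injury in that comparison, and the hydrophobin ranked 15 from the bottom. The comparison called 1078 genes with all libraries, 360 without MI_90min replicate 1 and 643 without Dm_90min replicate 3. Against the collembola at 90 min the log2 difference of injury was -0.44 ± 0.69 (95% interval -1.84 to 0.95, edgeR adjusted p = 0.63), with overlapping libraries. That comparison called 43.3% of all genes.

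**Figure D2:**
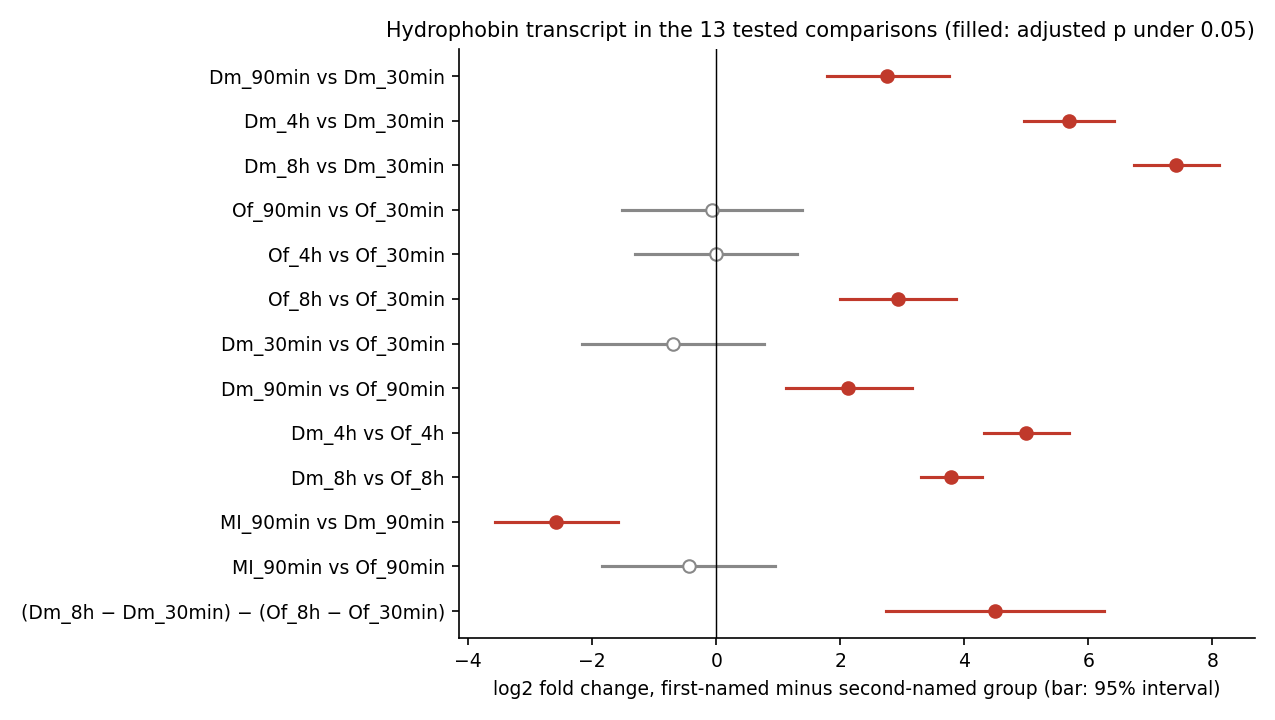
Log2 fold change of the hydrophobin transcript in the 13 tested comparisons, first-named minus second-named group, with bars for the 95% interval and filled points for an edgeR adjusted p under 0.05. The 3 larval times stand at 2.76, 5.69 and 7.42 above 30 min, and the open points are the collembola at 90 min and 4 h, larvae against collembola at 30 min, and injury against collembola at 90 min.

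Injury and larvae met again later, as a description only, since injured libraries picked the gene. At 30 min the log2 difference of larvae over injury was 0.06 ± 0.71, and at 4 h it was -0.06 ± 0.21, with overlap at both times. At 8 h the larval libraries, at 205 to 268 CPM, lay above the injured ones at 106 to 161 CPM, 1.69-fold apart in the fit (log2 0.76 ± 0.2). Within the injury course the log2 change from 30 min was 0.24 ± 0.7 at 90 min, 5.81 ± 0.36 at 4 h and 6.71 ± 0.35 at 8 h. Of the 3 treatments, larval grazing alone had 90 min libraries free of overlap with its 30 min libraries.

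Against untreated mycelium the values are likewise a description. At 30 min all 3 Dm libraries, at 0.72 to 1.61 CPM, lay below the CT0 libraries at 1.72 to 3.84 CPM, a log2 difference of -0.79 ± 0.64. The Dm_90min libraries lay above CT0, by 1.97 ± 0.46 on the log2 scale. Against CT8 the larval libraries stood higher by 3.23 ± 0.27 at 4 h and by 4.96 ± 0.27 at 8 h, 9.39-fold and 31.1-fold. The injured libraries overlapped CT0 at 30 and 90 min, with log2 differences of -0.85 ± 0.66 and -0.61 ± 0.64. The collembola libraries also overlapped CT0 at 30 and 90 min, with log2 differences of -0.1 ± 0.68 and -0.16 ± 0.65. At 4 h, without a control of that time, all 3 Of libraries lay below CT8, at 1.05 to 2.97 CPM against 5.13 to 10.6 CPM, a log2 difference of -1.77 ± 0.45. At 8 h they overlapped CT8 by 1 library on each side, and the fit put them 2.24-fold higher (log2 1.16 ± 0.31). The late control itself stood 3.18-fold above the early one (log2 1.67 ± 0.46), without overlap. With that change taken off, the log2 change between 30 min and 8 h was 5.75 ± 0.77 after larvae, 5.05 ± 0.76 after injury and 1.26 ± 0.74 after the collembola. These 3 values share the control libraries.

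The authors' deposited tables of fold changes list the hydrophobin in 6 of 9 comparisons. It is absent from those for larvae at 90 min, injury at 90 min and the collembola at 30 min. In the authors' deposited tables the log2 fold change after larvae was -2.01 at 30 min, 3.71 at 4 h and 5.48 at 8 h. After injury it was -2 at 30 min, 3.85 at 4 h and 4.81 at 8 h in the authors' deposited tables. The tables do not name their control. Over the genes listed, the fold changes here lay nearest to the authors' with the mean of both controls. The exception was the collembola at 30 min, which lay nearest with CT8. For injury at 30 min the mean absolute log2 difference was 0.0391 with both controls, 0.122 with CT8 and 0.163 with CT0. Taking the mean of both controls here gave -1.63 ± 0.51, 4.07 ± 0.25 and 5.79 ± 0.23 after larvae at the same times, and -1.68 ± 0.53, 4.13 ± 0.24 and 5.03 ± 0.23 after injury. The low 30 min values thus depend on the control, since CT8 lies above CT0. Against the same mean the larval value at 90 min was 1.14 ± 0.35, and these libraries overlapped the controls. In the authors' deposited tables the hydrophobin ranked 5 from the top of 1073 listed genes at 8 h after larvae and 20 of 526 at 4 h.

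**Figure D3:**
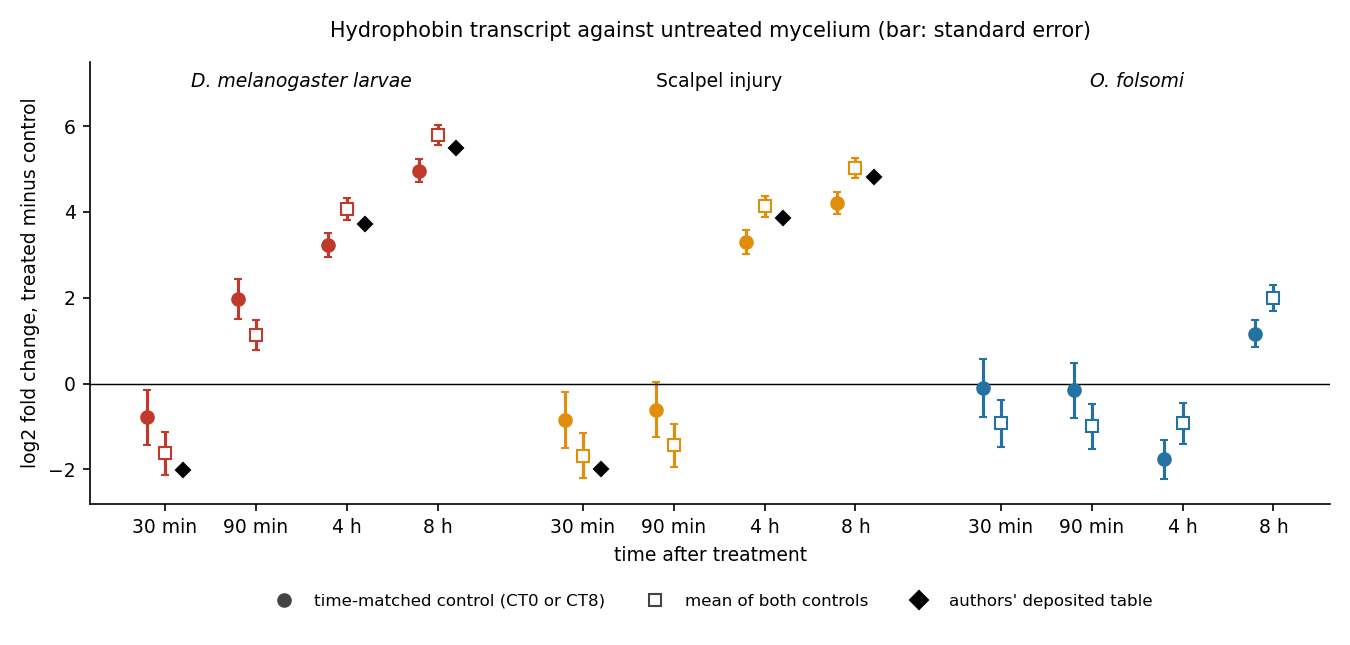
Log2 fold change of the hydrophobin against untreated mycelium by treatment and time. Filled circles are against a single control, CT0 before 4 h and CT8 at 4 h and 8 h. Not all of these are matched in time. Open squares are against the mean of both controls (bars are the SE), and black diamonds are the authors' deposited tables. After larvae and injury all 3 measures lie below 0 at 30 min and stand higher at 8 h than at 4 h, and after the collembola the point against CT8 lies at -1.77 at 4 h and 1.16 at 8 h.

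Genes with the most similar pattern were found by Pearson's r over the 14 group means of log2 CPM, among 7791 genes that reached 10 CPM in some group. The likeness is a description and includes the groups that picked the hydrophobin. Of these genes 72 had r of at least 0.9, 20 had at least 0.95, and 8 had -0.9 or less. The closest was Tatro_011808 (r = 0.984), followed by Tatro_011750 (0.977), Tatro_004599 (0.973), Tatro_011200 (0.972) and Tatro_011617 (0.97). The next 5 were Tatro_011807, Tatro_002382, Tatro_005392, Tatro_006593 and Tatro_008683, down to r = 0.963. Only Tatro_004599 of these 10 has a product text, a GTP binding domain. Most of the 10 were replaced when genes were ranked by r over 42 libraries or by Spearman's rho, as given in the last section.

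Tatro_011750 had 0 counts in all 3 Dm_30min libraries and averaged 0.829 ± 0.0539 CPM in Dm_90min, 13.2 ± 1.71 CPM in Dm_4h and 53 ± 3.36 CPM in Dm_8h (SD, n = 3 each). It averaged 3.39 ± 2.55 CPM in Of_8h and 1.95 ± 1.49 CPM in CT8. Tatro_011808 varied over a narrower range, with 18.7 ± 4.81, 34.9 ± 8.12, 56.8 ± 13.9 and 87.6 ± 18.7 CPM over the 4 larval times, and 35 ± 3.55 CPM in Of_8h. After injury it averaged 17.7 CPM at 30 min and 18.5 ± 7.73 CPM at 90 min, a late departure like that of the hydrophobin. Both genes were picked by likeness over these same groups, so such matches are no separate support. Tatro_011808 and Tatro_011807 have adjacent ID numbers, as do Tatro_004599 and Tatro_004598.

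Among genes with a product text, the 10 most similar ranged from r = 0.973 to 0.909. Tatro_004599 and Tatro_004598, both with a GTP binding domain, led them at 0.973 and 0.958. Tatro_004599 averaged 40.6 ± 7.87, 74.6 ± 15.3, 201 ± 39.3 and 284 ± 44.5 CPM over the larval times. At 8 h it averaged 222 ± 19.7 CPM after injury, 116 ± 22.4 CPM after the collembola and 88.4 ± 10.9 CPM in CT8. This is the order of the hydrophobin, but the gene was picked by its likeness over these same groups. Tatro_004118, with a fungal transcription factor domain, had r = 0.952 and averaged 91.6 ± 27.8, 173 ± 51.6, 421 ± 68.8 and 666 ± 123 CPM over the larval times. At 8 h it averaged 310 ± 62.2 CPM after the collembola and 255 ± 25 CPM in CT8. Its 90 min level after injury, 174 ± 112 CPM, did not lag behind the larval level as that of the hydrophobin did. Tatro_004013, an acyl-CoA N-acyltransferase, had r = 0.95 with 194 ± 38.5 CPM in Dm_8h and 16.6 ± 3.64 CPM in Dm_30min. The others were a histidine triad protein, a deaminase, an alcohol dehydrogenase, an alpha/beta hydrolase, an inositol monophosphatase and a WD-40 repeat protein.

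**Figure D4:**
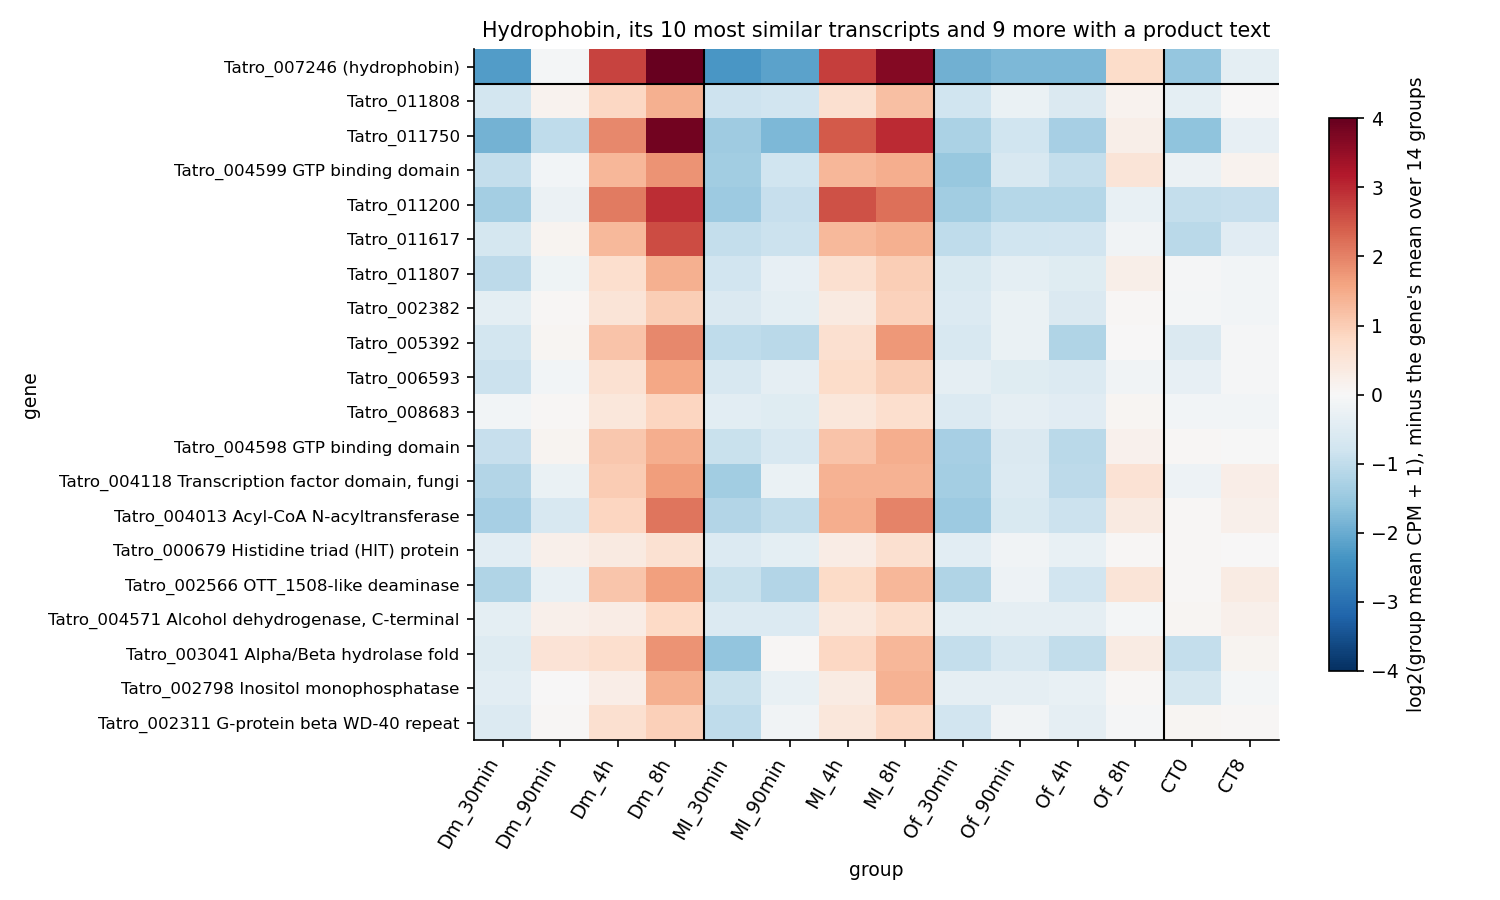
Group mean level (log2 of CPM + 1, less the mean of each gene over the 14 groups) of the hydrophobin, its 10 most similar genes and 9 more with a product text. Red columns gather at Dm_4h, Dm_8h, MI_4h and MI_8h in every row, palest in the genes with the narrowest range. The genes were picked by likeness over these 14 groups, so shared columns follow largely from the pick. The hydrophobin and Tatro_011750 have the widest range on this scale.

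Genes with nearby ID numbers moved in both directions. Within 5 numbers of Tatro_007246, 7 other genes passed the filter, and their likeness r ran from -0.812 for Tatro_007243 to 0.445 for Tatro_007241. Tatro_007244 fell over the larval course, to 38.6 ± 13.4 CPM at 8 h, against 198 ± 37 CPM at 30 min (SD, n = 3 each; log2 -2.37 ± 0.22, edgeR adjusted p = 3e-11). Tatro_007242 (log2 -1.91 ± 0.22, edgeR adjusted p = 4.7e-09), Tatro_007243 (-1.41 ± 0.26, edgeR adjusted p = 1.9e-05) and Tatro_007248 (-1.32 ± 0.27, edgeR adjusted p = 0.00012) also fell. Tatro_007241 rose in both courses, by a log2 change of 0.57 ± 0.14 after larvae (edgeR adjusted p = 0.001) and 0.48 ± 0.14 after the collembola (edgeR adjusted p = 0.043). Tatro_007247, next to the hydrophobin by number, had a log2 change of 0.24 ± 0.12 after larvae (edgeR adjusted p = 0.12), and Tatro_007249 one of -0.31 ± 0.54 (edgeR adjusted p = 0.67). Over the larval course 21.7% of all genes fell and 21.5% rose. ID numbers were taken as given, and positions in the genome were not analysed here.

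The only other gene whose text names a hydrophobin or cerato protein is Tatro_001935, a cerato-platanin. Product texts exist for 2865 of 11786 genes, so further members of these families could not be recognised among the rest. Cerato-platanins are small secreted proteins of fungi that bind chitin, and share a surface activity but no fold with hydrophobins. Over the larval course its log2 change at 8 h from 30 min was 0.63 ± 0.29 (edgeR adjusted p = 0.072). The rise passed the test without Dm_30min replicate 1 or Dm_8h replicate 2, or with libraries scaled by their totals. Over the collembola course the change was 0.08 ± 0.28 (edgeR adjusted p = 0.91). At 8 h it averaged 636 ± 344 CPM after larvae and 969 ± 42.4 CPM after the collembola (SD, n = 3 each; log2 -0.6 ± 0.29, edgeR adjusted p = 0.14). With all libraries it did not pass the test in these 3 comparisons, in each of which the hydrophobin did. It was lower after larvae than after the collembola at 30 min (log2 -1.14 ± 0.29, edgeR adjusted p = 0.0015) and at 4 h (-1.18 ± 0.29, edgeR adjusted p = 0.0022). At 4 h the hydrophobin was higher after larvae.

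The list of surface and wall-binding proteins holds 14 tested genes, including the hydrophobin and the cerato-platanin. It holds 5 WSC proteins, which in yeast sense stress at the wall, and 5 CFEM proteins, cysteine-rich proteins of the fungal cell surface. Product texts exist only for genes the authors called at 30 min after injury. This list and the lists that follow are therefore selections made on these samples, while the set of all genes is not. Over the larval course 3 members rose, 5 fell and 6 did not pass the test, where 21.5% of all genes rose and 21.7% fell. The share that rose is near that of all genes and the share that fell is higher, a difference that was not tested. The median log2 change was 0.06 against -0.01 over all genes. The number that rose was 1 without Dm_8h replicate 3 and 5 without Dm_30min replicate 1 or Dm_8h replicate 2. Beside the hydrophobin the risers were the CFEM protein Tatro_000363 (log2 2.29 ± 0.63), uneven at 64.6 ± 74.2 CPM in Dm_8h against 15.1 ± 7.97 CPM in Dm_30min, and Tatro_002880, with an LPXTG motif (1.3 ± 0.35). The CFEM protein Tatro_008185 fell to 55.6 ± 29 CPM at 8 h, against 335 ± 60.4 CPM at 30 min (log2 -2.68 ± 0.25, edgeR adjusted p = 5.4e-11). The WSC protein Tatro_011005 fell by 1.21 ± 0.18 on the log2 scale.

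Over the collembola course 4 of the 14 rose and none fell, with a median of 0.6 against -0.03 over all genes, of which 3.44% rose and 1.85% fell. Beside the hydrophobin these were the 3 WSC proteins Tatro_002948 (log2 1.06 ± 0.32), Tatro_010674 (0.97 ± 0.18) and Tatro_005557 (0.6 ± 0.16). Whichever single library was left out, only 2 to 3 members rose, with 2 without Of_30min replicate 2 or Of_8h replicate 2. At 8 h, 3 members were higher and 5 lower after larvae than after the collembola, with a median of -0.59 against 0.01 over all genes, of which 10.7% were higher and 11.3% lower. Without Dm_8h replicate 1, 3 members were lower. With all libraries the hydrophobin was the only member that rose in both courses.

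Of 14 genes for wall synthesis and remodelling, a selection of the same kind, 2 rose and 5 fell over the larval course. Of all genes 21.5% rose and 21.7% fell. The median log2 change of the 14 was -0.16, and that of all genes -0.01. Without Dm_30min replicate 3 or Dm_8h replicate 1, 1 rose. The fallers included the chitinases Tatro_001203 (-0.9) and Tatro_010133 (-0.72) and the chitin synthase Tatro_003420 (-0.63), which builds the chitin that chitinases cut. The GPI mannosyltransferase Tatro_006837, an enzyme of surface anchor assembly, rose by 0.57. Over the collembola course none rose and 2 fell, the chitinase Tatro_010133 (-1.29) and the glycoside hydrolase family 18 protein Tatro_006640 (-1.25), where 3.44% of all genes rose and 1.85% fell.

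Of 64 genes in a broad list for conidiation, light and development, 15 rose, 23 fell and 26 did not pass over the larval course. Of all genes 21.5% rose and 21.7% fell. The share that rose is thus near that of all genes and the share that fell is higher, a difference that was not tested. The median was -0.07 in the list and -0.01 over all genes. The word patterns also matched parts of other words, such as the end of "binding protein", and took in many unrelated proteins. Among these are RNA-binding, actin capping and ribosomal RNA-processing proteins. Another 19 members have WD-40 repeats. Few members are thus known regulators of development, and the counts and median describe a mixed list. The WD-40 proteins Tatro_005291 (-1.73), Tatro_006015 (-1.71), Tatro_010618 (-1.66) and Tatro_003047 (-1.59) had the largest changes of the list. Of the 19 WD-40 proteins 14 fell, 3 rose and 2 did not pass, and Tatro_002311 (1.53), one of those most like the hydrophobin, was among the risers. Over the collembola course none rose and 1 fell, the WD-40 protein Tatro_004811 (-0.57), where 3.44% of all genes rose and 1.85% fell. Without Of_8h replicate 1 there were 4 that rose, and with library totals 5.

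**Figure D5:**
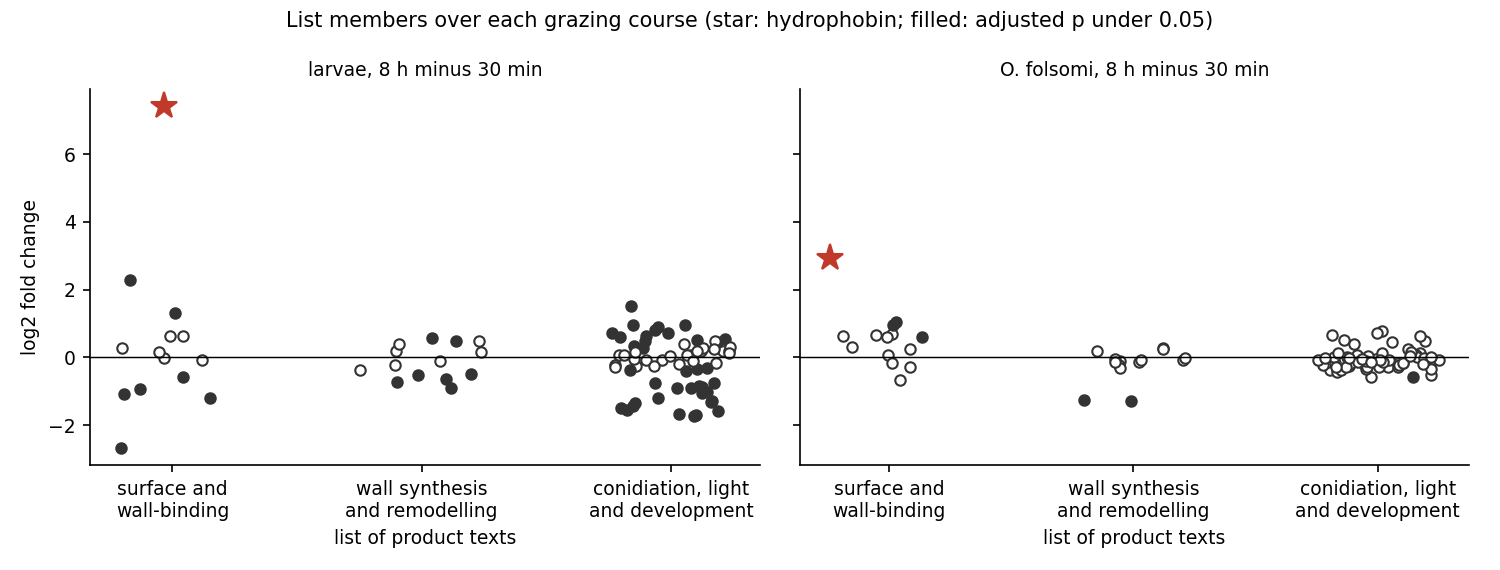
Log2 fold change between 30 min and 8 h after larvae (left) and after O. folsomi (right) for the 14, 14 and 64 members of 3 lists, with filled points for an edgeR adjusted p under 0.05 and a star for the hydrophobin. The star stands at 7.42 after larvae and 2.93 after O. folsomi, above all other members in both panels.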

How the data were processed

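Read counts per transcript model were deposited by the authors, unnormalized. Per the submitters' processing notes the tools were HTSeq 0.14.1, HISAT2 2.1.0 and FastQC 0.11.6, and per the labels' protocols the kit was strand-specific. Build, annotation and strand setting are not given in the sources at hand, which leaves genes that overlap or have near copies uncertain. The 12018 models were reduced to 1 per gene, since all 204 genes with several models had identical counts in each. The authors also deposited 9 tables with log2 fold changes, p-values and, per the file headers, an F statistic (a score) for genes with a false discovery rate of at most 0.005, and product texts for 2865 genes.

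Counts were analysed with edgeR 4.0.16 under R 4.3.3. Its default expression filter kept 9193 of 11786 genes, and libraries were scaled with TMM and fitted in a quasi-likelihood model with 1 coefficient for each of 14 groups of 3 libraries. P-values were adjusted by the Benjamini-Hochberg method within each of 13 comparisons, and 13 against controls were described without a test. The SE of a log2 change is its size over the root of F. Depth per library, between 1152096 and 5398093 counts, limits the low levels.

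The hydrophobin, the lists and the tests were chosen with earlier results of these data known. Named genes are the hydrophobin, genes whose text names a hydrophobin or cerato protein, genes within 5 ID numbers, the 10 most similar with and without a text, and up to 4 members of each list with the largest changes in each grazing course. Tatro_002410 falls outside this rule and was named after its values were seen. No gene ID matched the RefSeq table of the species, so no sequence is shown. Alternatives were library totals, other filters, DESeq2 1.42.0, a fit of only the groups compared, both controls together, a replicate block and leaving out libraries.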

Additional observations from a re-analysis of the deposited data

Results flagged for a closer look

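The log2 change of the hydrophobin between 30 min and 8 h was larger after larvae than after the collembola by 4.49 ± 0.87 in a test of the difference itself (edgeR adjusted p = 0.00026). The change was 7.42 after larvae and 2.93 after the collembola, and all 3 libraries of 8 h exceeded all 3 of 30 min in both courses. Both 30 min groups rest on few counts, 17 after larvae and 15 after the collembola. The shallowest libraries of Dm_8h and Of_30min enter this value, and without the 4 shallowest libraries it was 4.59.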

How the results depend on the processing

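All 184 alternative hydrophobin values in the 13 tested comparisons kept their side of the threshold, and called ones their direction. The difference between the courses ran from 3.96, without Of_30min replicate 3 (edgeR adjusted p = 0.024), to 4.85. Fitted with only the groups compared, the gene failed the filter in the 4 uncalled comparisons. Replicate numbers did not pair libraries: same-numbered deviations correlated between -0.17 and 0.1; with a replicate block the values were 7.44, 2.91 and 4.53 for the larval course, the collembola course and their difference, with no call changed. Levels against untreated mycelium moved with the control. Against the mean of both controls the log2 values were -1.63 (30 min), 1.14 (90 min), 4.07 (4 h) and 5.79 (8 h) for larvae, -1.68 (30 min), -1.44 (90 min), 4.13 (4 h) and 5.03 (8 h) for injury, and -0.93 (30 min), -1 (90 min), -0.93 (4 h) and 2 (8 h) for the collembola, as CT8 lies above CT0. With library totals the hydrophobin and cerato-platanin both rose over the larval course (2 against 1), 1 wall synthesis gene (against 0) and 5 development genes (against 0) rose over the collembola course, and the median of all genes shifted by 0.149 there and by 0.102 between grazers at 30 min, where the hydrophobin was at 3.07 and -0.61. With totals the share of called genes that were higher was 43.4% against 55.9% for Dm_90min over Dm_30min, 93.5% against 72.2%, 84.8% against 58.8% and 90.9% against 65% at the 3 later collembola times, 62.2% against 49% for Dm_30min over Of_30min, 63.5% against 42.6% for MI_90min over Dm_90min, and 40.7% against 52.3% for the difference between courses. Without the 4 shallowest libraries, left out after seeing the data, both genes (2) and 5 surface genes (against 3) rose over the larval course, 1 development gene (against 0) rose over the collembola course, and 6 (against 10) were lower after larvae at 8 h; the hydrophobin stood at 7.32 and 2.73 in the courses. Leaving out 1 library at a time, for lists also chosen after seeing the data, gave over the larval course 1 to 2 risers of the hydrophobin and cerato-platanin, 1 to 5 surface and 1 to 3 wall synthesis genes, over the collembola course 2 to 3 surface risers and 0 to 4 development risers with 0 to 1 that fell, and between grazers at 8 h 0 to 1 of the hydrophobin and cerato-platanin, 3 to 7 surface, 3 to 5 wall synthesis and 6 to 12 development genes lower and 0 to 2 wall synthesis genes higher. Fitting only the groups compared called 282 against 1743 (Dm_90min over Dm_30min), 2516 against 3979 (Dm_8h over Dm_30min), 1494 against 486 (Of_8h over Of_30min), 1883 against 3160 (Dm_90min over Of_90min), 1126 against 2023 (Dm_8h over Of_8h) and 77 against 1078 (MI_90min over Dm_90min). For the collembola at 90 min and 4 h over 30 min, 36 and 34 genes were called, against 62 and 66 with totals, 69 and 79 with DESeq2, 6 and 18 without the shallowest libraries, and 5 to 29 and 8 to 23 without 1 library. Without 1 library, 219 to 417 were called for Of_8h over Of_30min, 1053 to 1812 for Dm_90min over Dm_30min and 360 to 1488 for MI_90min over Dm_90min. Of the 10 most similar genes, 4 were shared with the ranking by r over 42 libraries and 1 with that by Spearman's rho. Other causes were not tested.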
